A study of Mus musculus with 6 samples.

Results

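Cyclins, cyclin-dependent kinases (CDKs), CDK inhibitors, E2F factors and Cdc25 phosphatases were examined in mLPS1, a cell line from mouse dedifferentiated liposarcoma, a tumour that arises from fat-lineage tissue. The genes were chosen by symbol alone, which gave 56 of 14472 rows. A symbol counted if it was Ccn with 1 letter and an optional number, Cdk with a number and nothing after it, Cdkn with a digit and a letter from a to d, E2f with a digit, or Cdc25 with a, b or c. Cdk4, Cdkn1a and longer symbols such as Ccnyl1 and Cdk11b were not part of the set. Total RNA was sequenced from 3 libraries of the line labelled NICD Knockout and 3 libraries of the line labelled wild type. NICD is the intracellular domain of a Notch receptor, the part that reaches the nucleus to activate transcription. By its title the series concerns Notch over-expression, and its design text names dNICD cells. The sources used here do not state whether either line carries an introduced Notch fragment. Each genotype is 1 cell line by the labels, and the sources used here do not state whether the knockout line is a single clone. The library titles carry a p number (34, 36 and 39 in the knockout, 35, 37 and 40 in wild type) whose meaning they do not give. As the labels do not mention separate cultures, each p-value reflects the spread between these libraries alone, which may be technical.

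Cyclins are unstable proteins that bind and switch on CDKs in turn through the cell cycle. D cyclins respond to growth signals and start the phosphorylation of the retinoblastoma protein, which then releases E2F factors to transcribe the genes of DNA replication, E and A cyclins carry cells into and through S phase, and B cyclins with Cdk1 drive mitosis. CDK inhibitors hold these kinases back, Cdc25 phosphatases activate them, and another branch of the family works with RNA polymerase II rather than in division. The D cyclin gene Ccnd1 is a known target of Notch in several cell types, and this pathway is often altered in dedifferentiated liposarcoma in people.

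The measurements are those of the authors' deposited table, which gives each gene 1 mean normalised count over the libraries, and a log2 fold change, knockout over wild type (log2 change below), with its standard error (SE) and adjusted p. Single-library values were not used here, so neither the depth of each library nor the overlap of single libraries between groups can be given. In place of them, each gene has a fitted level per group in normalised counts, computed from its mean and fold change for 3 libraries in each group, and a 95% Wald interval. A gene passed at an adjusted p under 0.05. Notch1, the gene a check of the labels would turn to first, had a fitted level of 2234 in the knockout and 7665 in wild type, a log2 change of -1.78 (SE 0.13, adjusted p = 1.08e-38, DESeq2) per the authors' deposited table. Within it, RNA of an introduced fragment could not be separated from that of the endogenous gene. Of 8 mesenchymal markers, 7 had a value, with summed fitted levels of 88257 in the knockout and 154903 in wild type, led by Vim. They moved both ways per the authors' deposited table: Pdgfra, Col1a2 and Eng rose (log2 changes 2.36, 1.27 and 0.32), and Pdgfrb, Col1a1, Nt5e and Vim fell (-3.02, -1.94, -1.71 and -0.56). The summed fitted levels in knockout and wild type were 25.2 and 93.4 for 2 of 5 leukocyte markers, 50.1 and 63.6 for all 4 endothelial markers, and 12.2 and 40.6 for Krt14, the 1 of 4 epithelial markers with a value. The adipocyte marker Fabp4 stood at 307.4 in the knockout and 4.37 in wild type, and Adipoq, Plin1, Lep and Cidec were not analysed here, so a fat cell identity was not checked by them. The part of these other cell types in the results was not tested.

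Of the 56 genes, 27 passed per the authors' deposited table, 22 of them lower and 5 higher in the knockout. That is 48.2% of the family, near the 50.5% of all 14470 genes tested that passed per the authors' deposited table. By direction, 39.3% of the family and 25.1% of all genes were lower, and 8.93% of the family and 25.4% of all genes were higher. Among genes with a mean of at least 100, where 52 of the 56 lie, 51.9% of the family and 54.6% of all genes passed per the authors' deposited table. In that range 42.3% of the family and 30.2% of all genes were lower, and 9.62% of the family and 24.4% of all genes were higher. The median log2 change of the family was -0.32 per the authors' deposited table, beside 0.02 for all genes tested. At a mean of at least 100 the medians were -0.29 for the family and -0.05 for all genes. These counts describe the list and are no test that it differs from other genes. Where a level differs in bulk RNA, fewer cells of a kind and less RNA per cell cannot be told apart.

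Changes were small. Lower genes that passed fell between 1.27-fold and 2.29-fold per the authors' deposited table, and their median fall was 1.55-fold. Only 3 of the 27, Cdk17, Cdk19 and Cdk20, reached 2-fold, which is 5.36% of the family, beside 23.2% of all genes tested that passed and reached 2-fold per the authors' deposited table. Of the 29 that did not pass, 17 had an interval that lay wholly within a 1.5-fold change either way, and 12 had an interval that reached beyond it. The SE of the log2 change lay between 0.10 and 0.27 for the 52 genes whose mean was 100 or more, per the authors' deposited table, and between 0.43 and 1.23 for Cdk3, Cdk15, Cdkn1c and Ccno, the 4 genes below it.

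**Figure D1:**
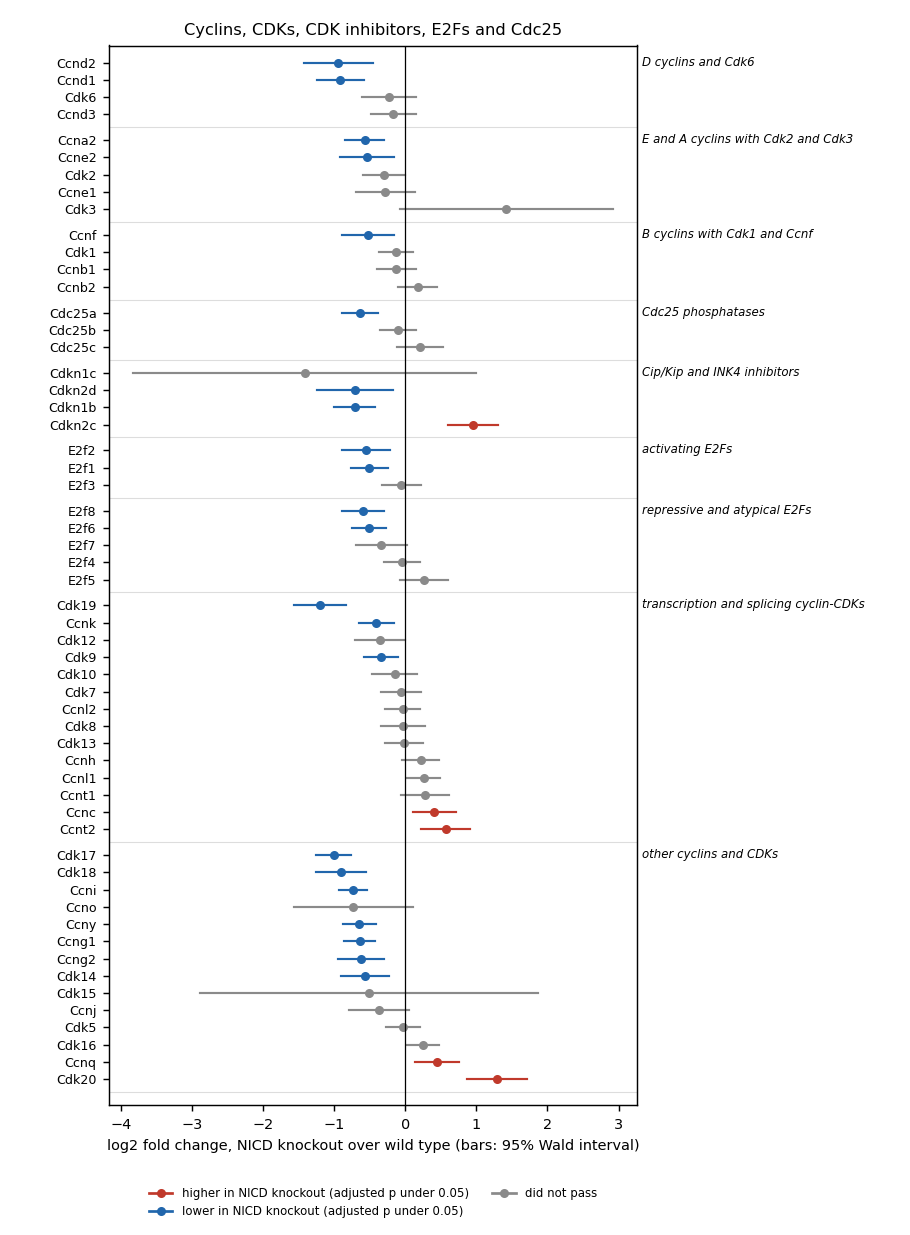
Log2 fold change, NICD knockout over wild type, of the 56 genes by role, with 95% Wald intervals as bars. Of the genes that passed, 22 lie left of 0 and 5 right of it, and the widest intervals belong to Cdkn1c, Cdk15 and Cdk3.

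Among the D cyclins, which open the cycle with Cdk6, 2 of 3 fell. Of all genes with a mean of at least 100, 30.2% were lower and 24.4% higher, the shares to set beside each role below. Ccnd1 (ENSMUSG00000070348, chromosome 7) had a fitted level of 9680 in the knockout and 18230 in wild type. It fell 1.88-fold per the authors' deposited table (log2 change -0.91, SE 0.17, interval -1.25 to -0.58, adjusted p = 4.12e-07, DESeq2). Ccnd2, its close relative, fell 1.92-fold per the authors' deposited table, to a fitted level of 4514 in the knockout against 8656 in wild type (adjusted p = 5.12e-04). Ccnd3 and the kinase gene Cdk6 did not pass, with log2 changes of -0.17 (interval -0.48 to 0.15) and -0.23 (interval -0.61 to 0.15) per the authors' deposited table. The intervals of Ccnd1 and Ccnd3 do not overlap, those of Ccnd2 and Ccnd3 overlap narrowly, and the differences between the genes were not tested.

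Of the S phase cyclins, Ccna2 and Ccne2 fell and Ccne1 did not pass. Ccna2, which works with Cdk2 and Cdk1, had a fitted level of 3342 in the knockout and 4963 in wild type, and fell 1.48-fold per the authors' deposited table (log2 change -0.57, SE 0.14, adjusted p = 1.42e-04). Ccne2, a partner of Cdk2, fell 1.45-fold per the authors' deposited table (adjusted p = 0.0125), to 689.5 in the knockout against 999 in wild type. Ccne1 had a log2 change of -0.28 (interval -0.69 to 0.14) and Cdk2 one of -0.30 (interval -0.60 to -0.002) per the authors' deposited table, and neither passed (adjusted p = 0.274 and 0.0881). Cdk3, an early-cycle kinase gene with a mean normalised count of 9.85, did not pass at a log2 change of 1.42 (interval -0.08 to 2.92) per the authors' deposited table.

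Of the mitotic genes, Ccnf fell, while Cdk1 and its B cyclins did not pass. Cdk1, the mitotic kinase, had fitted levels of 2275 in the knockout and 2493 in wild type and did not pass per the authors' deposited table (log2 change -0.13, interval -0.37 to 0.10). Ccnb1 and Ccnb2, which activate it, stood at -0.13 (interval -0.40 to 0.15) and 0.17 (interval -0.10 to 0.44) per the authors' deposited table. All 3 intervals lie within a 1.5-fold change. Ccnf, an F-box cyclin that marks proteins for degradation and is not known to activate a CDK, fell 1.43-fold per the authors' deposited table (log2 change -0.52, SE 0.19, adjusted p = 0.0131), with 1069 in the knockout and 1531 in wild type.

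Of the Cdc25 phosphatases, Cdc25a, which acts at the start of S phase and again later, was the 1 that fell. It had a fitted level of 644.8 in the knockout and 1002 in wild type, a 1.55-fold fall per the authors' deposited table (log2 change -0.64, SE 0.13, adjusted p = 7.12e-06). The mitotic phosphatase genes Cdc25b and Cdc25c did not pass, at -0.10 (interval -0.35 to 0.15) and 0.21 (interval -0.12 to 0.54) per the authors' deposited table.

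CDK inhibitors moved in both directions. Cdkn2c, an INK4 inhibitor that binds Cdk6 and its sister kinase, rose 1.93-fold per the authors' deposited table (log2 change 0.95, SE 0.18, interval 0.60 to 1.30, adjusted p = 6.47e-07), with a fitted level of 717.1 in the knockout and 370.9 in wild type. Cdkn2d, another INK4 inhibitor, fell 1.64-fold per the authors' deposited table (adjusted p = 0.0203), to 252.5 in the knockout against 413.6 in wild type. Cdkn1b, a Cip/Kip inhibitor of cyclin E and A complexes, also fell 1.64-fold per the authors' deposited table (adjusted p = 7.74e-06), to 550.7 in the knockout against 901.2 in wild type. Cdkn1c, of the same class, had a mean of 5.01 normalised counts and did not pass at -1.41 (SE 1.23), with an interval on both sides of 0, per the authors' deposited table. The intervals of Cdkn2c and Cdkn2d lie on opposite sides of 0. Cdkn2a and Cdkn2b were not analysed here.

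Of 8 E2F genes, 4 fell and none rose. That is 50% that passed, beside 50.5% of all genes tested and 54.6% of those with a mean of at least 100. E2f1, the best known activator of replication genes, had a fitted level of 1060 in the knockout and 1502 in wild type, a fall of 1.42-fold per the authors' deposited table (log2 change -0.50, SE 0.13, adjusted p = 3.79e-04). E2f2, an activator too, fell 1.47-fold per the authors' deposited table (adjusted p = 0.0037), while E2f3 had a log2 change of -0.05 (interval -0.33 to 0.22). Among the repressive and atypical factors, E2f6, which recruits Polycomb proteins, fell 1.43-fold per the authors' deposited table (log2 change -0.51, SE 0.12, adjusted p = 1.14e-04), to 809 in the knockout against 1154 in wild type. E2f8, an atypical repressor that is itself transcribed in S phase, fell 1.51-fold per the authors' deposited table (adjusted p = 2.52e-04). Its partner E2f7 did not pass at -0.33 (interval -0.69 to 0.02), and neither did E2f4 at -0.05 and E2f5 at 0.27, per the authors' deposited table. With the median log2 change of neighbouring genes subtracted, E2f1 did not pass (-0.24), E2f6 was higher (0.42), and E2f3 and E2f7 were lower (-0.32 and -0.55), with adjusted p of 0.117, 0.0022, 0.0474 and 0.0072. These p-values treat the neighbour median as exact and can be too small.

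**Figure D2:**
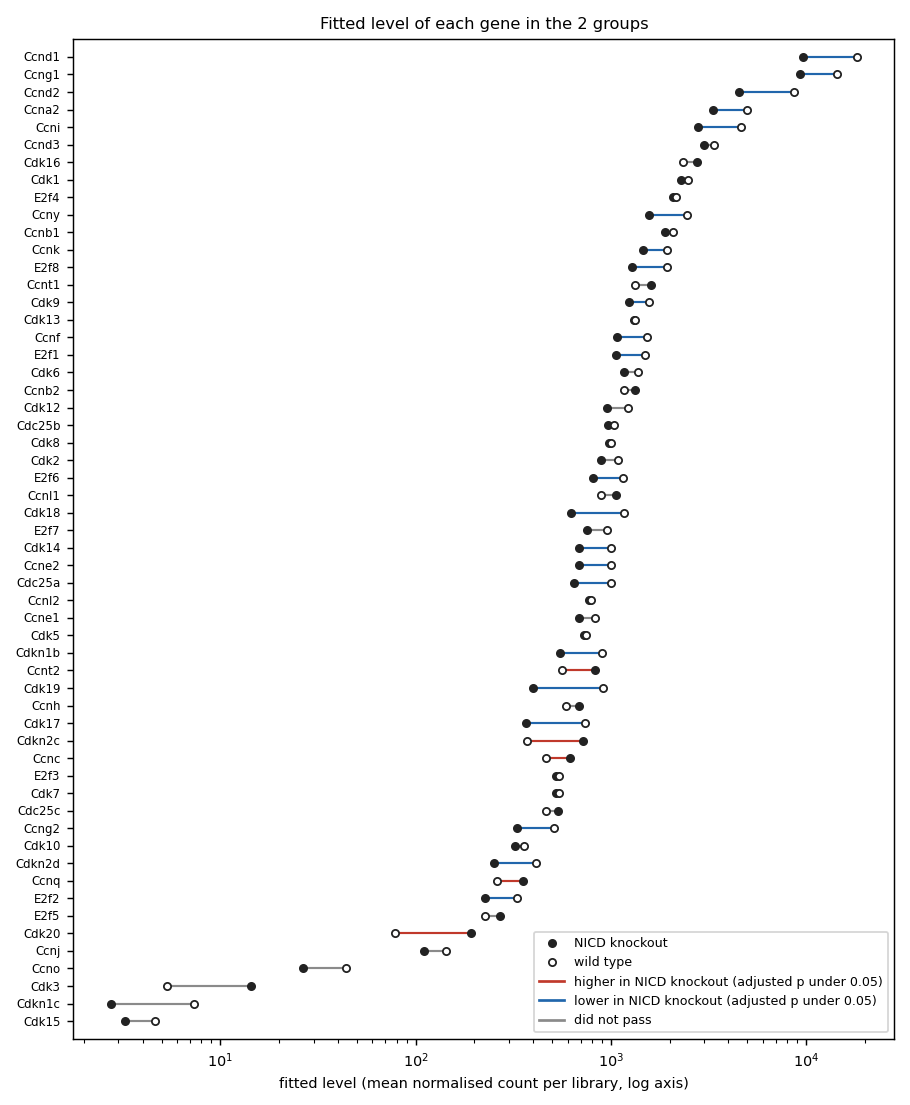
Fitted level of each of the 56 genes in NICD knockout (filled) and wild type (open), in normalised counts per library on a log axis, in order of the mean over both. Counts were not divided by transcript length, so the order is not one of RNA molecules, and Cdk17, Cdk19, Cdk20, Cdk3 and Cdkn1c are the pairs more than 2-fold apart.

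The cyclins and kinases of transcription and splicing, 14 genes, held 3 lower and 2 higher genes per the authors' deposited table (median log2 change -0.04). Of all genes tested, 25.1% were lower and 25.4% higher, and of those with a mean of at least 100, 30.2% and 24.4%. Cdk19 (ENSMUSG00000038481, chromosome 10), a kinase of the Mediator complex that bridges transcription factors and RNA polymerase II, had a fitted level of 399.7 in the knockout and 916 in wild type. It fell 2.29-fold per the authors' deposited table (log2 change -1.20, SE 0.19, interval -1.56 to -0.83, adjusted p = 9.41e-10). Its paralog Cdk8, which takes the same place in Mediator, had 982.7 in the knockout and 1006 in wild type, a log2 change of -0.03 (interval -0.34 to 0.27, adjusted p = 0.876) per the authors' deposited table. The intervals of these paralogs do not overlap. Ccnc, the cyclin that both kinases bind, rose 1.33-fold per the authors' deposited table (adjusted p = 0.0176), to 615 in the knockout against 462.8 in wild type.

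The elongation kinase gene Cdk9 fell 1.27-fold per the authors' deposited table (adjusted p = 0.0105), with 1231 in the knockout and 1561 in wild type. Of the cyclins that bind it, Ccnt2 rose 1.49-fold per the authors' deposited table (adjusted p = 0.00326), and Ccnt1 did not pass at a log2 change of 0.28 (interval -0.05 to 0.61). Ccnk, the cyclin of Cdk12 and Cdk13, fell 1.32-fold per the authors' deposited table (adjusted p = 0.00424), whereas these kinase genes did not pass at -0.36 and -0.02. The genes of the CDK-activating kinase, Cdk7 and Ccnh, did not pass at -0.06 and 0.22 per the authors' deposited table. The splicing-linked Ccnl1 and Ccnl2 and the kinase gene Cdk10 stood at 0.26, -0.04 and -0.15 per the authors' deposited table and did not pass.

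In the remaining 14 genes, whose products act outside the core cycle or in less known ways, 7 fell and 2 rose per the authors' deposited table (median log2 change -0.59). The shares of all genes tested were 25.1% lower and 25.4% higher, and 30.2% and 24.4% at a mean of at least 100. Cdk17 (ENSMUSG00000020015, chromosome 10), a kinase of the PCTAIRE branch, had a fitted level of 366.4 in the knockout and 736.3 in wild type. It fell 2.01-fold per the authors' deposited table (log2 change -1.01, SE 0.13, interval -1.25 to -0.76, adjusted p = 1.01e-14), the smallest p of the 56 genes. Cdk18, of the same branch, fell 1.87-fold per the authors' deposited table (adjusted p = 2.73e-06), to 627.6 in the knockout against 1172 in wild type. Cdk16, the third of them, did not pass at a log2 change of 0.25 (interval 0.03 to 0.47, adjusted p = 0.0562) per the authors' deposited table, and its interval does not overlap those of Cdk17 and Cdk18.

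Cdk20 (ENSMUSG00000021483, chromosome 13), a kinase tied to the primary cilium, had the steepest rise, with a fitted level of 191.7 in the knockout and 78.5 in wild type. It rose 2.44-fold per the authors' deposited table (log2 change 1.29, SE 0.22, interval 0.86 to 1.71, adjusted p = 1.94e-08). Ccnq, the cyclin that activates Cdk10, rose 1.36-fold per the authors' deposited table (adjusted p = 0.0128). Ccng1, a target of p53, fell 1.56-fold per the authors' deposited table to 9270 in the knockout against 14452 in wild type (adjusted p = 4.85e-08), and its relative Ccng2 fell 1.54-fold (adjusted p = 6.66e-04). Ccni fell 1.66-fold per the authors' deposited table (adjusted p = 3.16e-12). Cdk14 and Ccny, a kinase and its membrane-bound cyclin that act on a Wnt co-receptor, fell 1.47-fold and 1.57-fold per the authors' deposited table (adjusted p = 0.00312 and 3.85e-07). The neuronal kinase gene Cdk5 (-0.03), Ccnj (-0.37), Ccno (-0.73) and Cdk15 (-0.51) did not pass per the authors' deposited table.

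Some genes of the family lie among neighbours whose median log2 change was away from 0. The median log2 change of 10 expressed genes on each side was therefore set beside each gene. Of the 27 genes that passed, 21 had neighbours with a median within 0.3 of 0, among them Cdk17 (-0.07), Cdk19 (-0.09), Cdk20 (-0.08), Cdc25a (0.06) and Cdkn2c (0.08), all from the authors' deposited table. Another 5 had neighbours shifted by at least 0.3 in the gene's own direction: Ccnk (-1.03) and E2f6 (-0.93) on chromosome 12, Cdkn1b (-0.68) and Ccnd2 (-0.57) on chromosome 6, and Ccnd1 (-0.35) on chromosome 7. Of the whole family, 12 genes had a neighbour median more than 0.3 from 0. Those that did not pass were Cdc25c (0.53), Cdk3 (0.50), Cdc25b (0.48), Cdk13 (0.43), E2f5 (0.43) and Cdkn1c (-0.305). Shifted neighbours were therefore no trait of the genes that passed, and their share over all genes is not given here. With the neighbours subtracted, Cdkn1b stood at -0.03 (adjusted p = 0.885) and Ccnd2 at -0.37 (adjusted p = 0.212), and neither passed. The adjusted p after subtraction uses the gene's own SE alone. It leaves out the spread of the neighbour median, so it can be too small. Ccnd1 still passed at -0.57 (adjusted p = 0.00261). E2f1 on chromosome 2, with a neighbour median of -0.26, did not pass after subtraction at -0.24 (adjusted p = 0.117), nor did Ccnf at -0.42 (adjusted p = 0.0514).

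Both genes on chromosome 12 fell less than their neighbours, and turned to 0.63 for Ccnk (adjusted p = 4.86e-06) and 0.42 for E2f6 (adjusted p = 0.0022) once these were subtracted. Ccna2 was the 1 gene that passed against neighbours shifted the other way by at least 0.3, with a median of 0.55 on chromosome 3, and it stood at -1.12 after subtraction (adjusted p = 7.12e-15). In that setting 20 genes were lower and 9 higher, beside 22 and 5 as deposited, and the shares of all genes are not given for it. Newly passing were Cdc25b (-0.58), Cdk13 (-0.45), E2f7 (-0.55) and E2f3 (-0.32) on the lower side and Ccnt1 (0.44) and Cdk16 (0.39) on the higher side. The origin of these shifts was not tested.

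**Figure D3:**
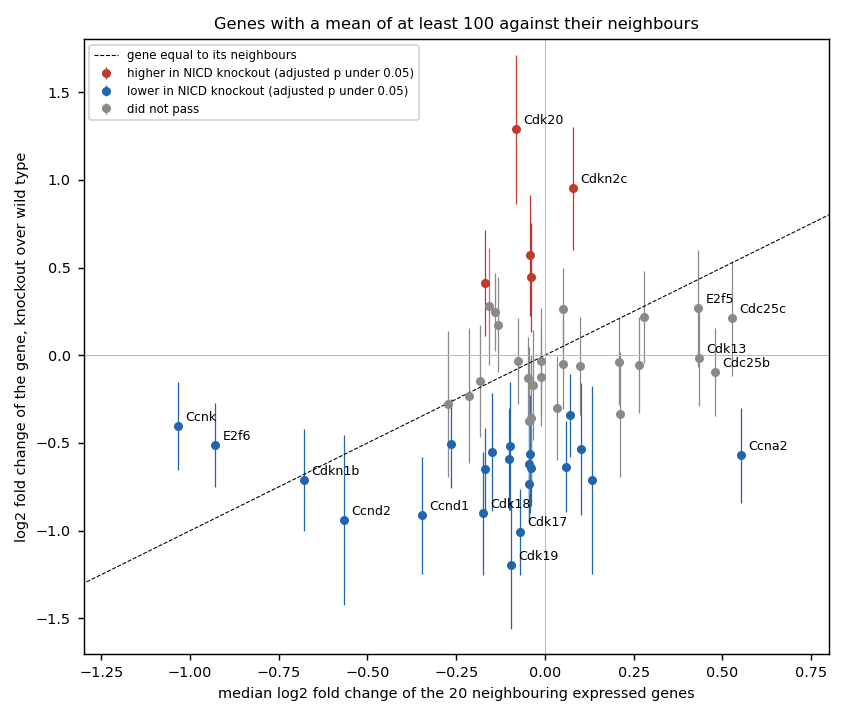
Log2 fold change of each gene whose mean was 100 or more (vertical axis, bars 95% Wald interval) against the median of its neighbours (horizontal axis), with a dashed line where both are equal. Cdkn1b lies near the line, Ccnk and E2f6 above it, and Ccna2, Cdk17, Cdk18 and Cdk19 well below it.

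Genes that act on these cyclins and kinases were taken from a list of 44 by role, of which 43 had a value, and 15 fell and 5 rose per the authors' deposited table (median log2 change -0.18). The share that passed was 46.5%, beside 50.5% of all genes tested and 54.6% of those with a mean of at least 100. Lower were 34.9% of the list, 25.1% of all genes and 30.2% of genes in that range. Higher were 11.6% of the list, 25.4% of all genes and 24.4% of genes in that range. Among the pocket proteins, Rb1, the retinoblastoma gene that holds E2F factors in check, had a fitted level of 563.3 in the knockout and 1114 in wild type, and fell 1.98-fold per the authors' deposited table (log2 change -0.98, SE 0.16, adjusted p = 1.43e-08). Its relatives Rbl1 and Rbl2 did not pass at -0.03 and 0.06 per the authors' deposited table. The E2F partner genes Tfdp1 and Tfdp2 fell with log2 changes of -0.49 and -0.46 per the authors' deposited table (adjusted p = 6.29e-04 and 0.00591).

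Foxm1, a transcription factor that activates mitotic genes with the MuvB complex, had 3298 in the knockout and 7765 in wild type. It fell 2.35-fold per the authors' deposited table (log2 change -1.24, SE 0.10, adjusted p = 4.22e-31), among chromosome 6 neighbours with a median of -0.45. Mybl2, which works with the same complex, fell with a log2 change of -0.93 per the authors' deposited table (adjusted p = 9.68e-07). The MuvB subunit genes Lin52 and Lin37 rose with log2 changes of 1.73 and 0.78 per the authors' deposited table (adjusted p = 1.58e-09 and 5.95e-04). Lin52 lies on chromosome 12 among neighbours with a median of 1.41, and at 0.32 it did not pass after they were subtracted (adjusted p = 0.338).

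Among kinases and adaptors, Mnat1, the assembly factor of the CDK-activating kinase, rose 1.55-fold per the authors' deposited table (log2 change 0.63, SE 0.15, adjusted p = 8.98e-05). Wee1, which inhibits Cdk1, rose with a log2 change of 0.33 per the authors' deposited table (adjusted p = 0.049). Cdk5r1, the activator of Cdk5, fell to 35.2 in the knockout against 85.1 in wild type, a log2 change of -1.27 (SE 0.36, adjusted p = 0.0013) per the authors' deposited table. Cdkn3, a phosphatase that acts on CDKs, fell with a log2 change of -0.63 per the authors' deposited table (adjusted p = 0.00311). In the degradation group 2 of 9 fell and none rose per the authors' deposited table, led by Fbxo5, an inhibitor of the anaphase-promoting complex (log2 change -0.83, SE 0.20, adjusted p = 1.19e-04), with Fbxo31 as the other one. That is 22.2% of this group, beside 50.5% of all genes tested that passed and 54.6% of those with a mean of at least 100.

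Of 14 proliferation markers, 6 fell and 1 rose per the authors' deposited table (median log2 change -0.32). That is 50% that passed, beside 50.5% of all genes tested and 54.6% of those with a mean of at least 100. Mki67, the gene of the Ki-67 antigen, had 4605 in the knockout and 9321 in wild type and fell 2.02-fold per the authors' deposited table (log2 change -1.02, SE 0.12, adjusted p = 4.68e-15). The replicative helicase genes Mcm2, Mcm4, Mcm5 and Mcm7 fell with log2 changes of -0.89, -0.72, -0.36 and -0.65 per the authors' deposited table, while Mcm3 and Mcm6 did not pass at 0.19 and -0.25. Bub1, a spindle checkpoint kinase gene, fell at -0.78 and Birc5 rose at 0.53 per the authors' deposited table, the last among neighbours with a median of 0.57. Top2a (0.19), Pcna (-0.18), Plk1 (-0.34), Aurka (-0.31) and Aurkb (-0.22) did not pass per the authors' deposited table. The neighbours of Mcm2 and Bub1 had medians of -0.46 and -0.52. The part of these markers in the changes of cyclins and E2F factors was not tested.

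**Figure D4:**
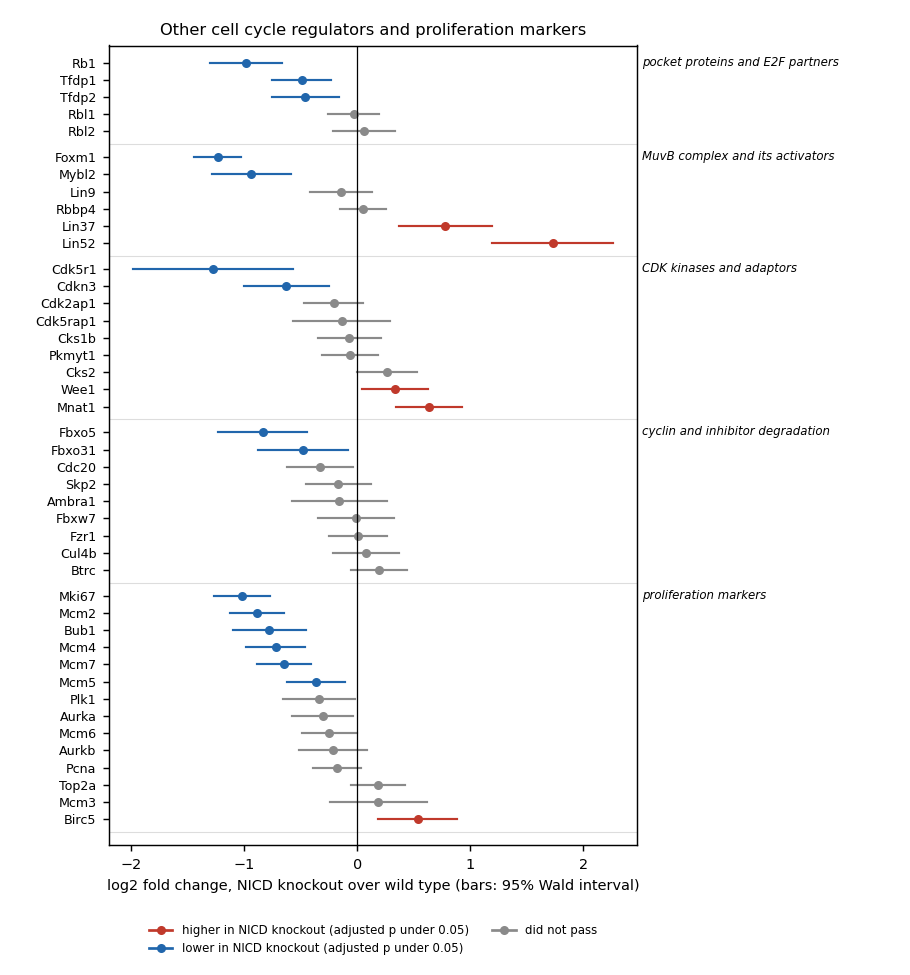
Log2 fold change, NICD knockout over wild type, with 95% Wald intervals, of 43 other cell cycle genes by role. Foxm1 (-1.24), Mki67 (-1.02) and Rb1 (-0.98) lie well left of 0, Lin52 (1.73) lies farthest right, and Rbl1 (-0.03) and Rbl2 (0.06) lie close to 0.

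Promoters were read to see whether genes that fell share the letters of an E2F site, since E2F factors transcribe several of these genes. RefSeq sequences of GRCm38.p6, 250 bases before to 50 after a start site, matched 42 of the 56 genes. The letters TTTGGCGC, TTTCCCGC, TTTCGCGC or TTTGCCGC, on either strand, occurred in 6 of the 42 (14.3%). They also occurred in 5.11% of 8276 genes whose mean was 100 or more and in 2.6% of all 27025 genes with a promoter sequence. They occurred in 2 of 15 genes that fell (Cdc25a and E2f2), in 0 of 5 that rose and in 4 of 22 that did not pass (Cdk1, Cdk2, E2f3 and E2f7). The E2f1 sequence, counted among the 15 without a match, runs through protein-coding letters of that gene. Bases before its coding region were therefore not read for any motif, and the count in genes that fell may be too low. Motifs were counted separately and may overlap. A match is a description of letters and not a bound site. Shown are 2 promoters of genes that fell and 2 of genes that did not pass, 5′ to 3′, with the E2F letters in capitals.
Cdc25a, chr9:109875329-109875628, plus strand: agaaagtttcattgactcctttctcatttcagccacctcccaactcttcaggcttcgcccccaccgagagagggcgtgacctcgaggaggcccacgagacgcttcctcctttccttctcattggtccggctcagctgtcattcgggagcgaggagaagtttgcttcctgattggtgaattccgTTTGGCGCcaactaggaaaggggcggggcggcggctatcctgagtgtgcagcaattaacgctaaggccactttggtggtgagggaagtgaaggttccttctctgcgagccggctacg
E2f2, chr4:136172024-136172323, plus strand: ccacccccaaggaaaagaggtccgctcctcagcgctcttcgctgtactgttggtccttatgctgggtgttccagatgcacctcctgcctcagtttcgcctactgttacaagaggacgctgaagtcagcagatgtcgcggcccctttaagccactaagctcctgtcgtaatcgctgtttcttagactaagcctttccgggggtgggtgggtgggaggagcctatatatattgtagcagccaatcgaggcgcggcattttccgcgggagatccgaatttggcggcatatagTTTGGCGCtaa
Cdk1, chr10:69352863-69353162, minus strand: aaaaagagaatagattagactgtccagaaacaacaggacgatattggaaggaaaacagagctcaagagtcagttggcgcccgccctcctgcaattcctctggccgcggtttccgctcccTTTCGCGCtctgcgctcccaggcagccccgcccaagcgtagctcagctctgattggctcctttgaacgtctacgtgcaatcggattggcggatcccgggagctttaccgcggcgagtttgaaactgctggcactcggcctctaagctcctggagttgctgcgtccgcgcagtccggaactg
Cdk2, chr10:128705002-128705301, minus strand: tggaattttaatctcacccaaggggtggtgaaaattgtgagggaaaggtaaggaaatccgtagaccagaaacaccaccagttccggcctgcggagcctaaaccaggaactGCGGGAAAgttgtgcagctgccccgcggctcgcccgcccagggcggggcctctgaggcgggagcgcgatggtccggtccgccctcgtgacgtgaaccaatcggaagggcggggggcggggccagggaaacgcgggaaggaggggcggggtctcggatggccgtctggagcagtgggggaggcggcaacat
The letters begin 67 bases before the start site in Cdc25a, 131 before it in Cdk1 and 140 before it in Cdk2, where they stand as the reverse complement GCGGGAAA, and at base 40 after it in E2f2. The letters GTGGGAA, which Rbpj binds, occurred in 0 of the 15 genes that fell, in 2 of the 42 (4.76%) and in 7.1% of genes with a mean of at least 100. TTTGAA or TTTAAA, an element of mitotic promoters, occurred in 13 of the 42 (31%), among them Ccnb1, Ccnb2 and Cdk1, and in 22.2% of genes with a mean of at least 100. E2f2 counts among the 13 only through a second sequence, not shown, which opens with protein-coding letters of that gene. CCAAT occurred in 25 of the 42 (59.5%) and in 43.6% of genes with a mean of at least 100. Ccnd1, Ccnd2, Ccna2, Ccne2, Cdk17 and Cdk19 were among the 14 not read.

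Overlapping genes limit some values, since the sources used here do not say whether the libraries mark strand. In the GENCODE M21 annotation, 26 of the 56 genes overlap a gene on the opposite strand, so this is no trait of the genes that passed. Of the 27 that passed, 11 overlap one, and 5 of these partners have a value. Elk3, which overlaps Cdk17, rose with a log2 change of 0.60 per the authors' deposited table, and Tstd3, which overlaps Ccnc, fell at -0.41, each against the direction of the gene it overlaps. LTO1, opposite Ccnd1, rose at 0.63 per the authors' deposited table (adjusted p = 0.0443), and Exosc9 and Ints8, opposite Ccna2 and Ccne2, did not pass at 0.29 and 0.05. Cdk19 overlaps the antisense gene Cdk19os and Cdk20 the antisense gene 1700015C15Rik, which were not analysed here.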

How the data were processed

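RNA-seq libraries of 6 samples were grouped by the genotype label, 3 NICD Knockout and 3 wild type. Salmon, DESeq2 and the build mm39 appear in the submitters' processing notes, without versions or settings. The sources used here do not state any filter on low counts. As deposited, per the file headers, each gene's row holds the mean of normalised counts (a signal that is never negative), a log2 fold change and its standard error (log2 scale), the Wald statistic (a score), the p-value and its adjusted form. The name of the table gives the direction, knockout over wild type. Of 14472 rows, 2 have no p. All 3 of the last columns were recomputed from the others, with Benjamini-Hochberg adjustment over all genes, to within 1.56e-13.

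No test of groups was fitted here, since the table holds no values of single libraries: calls are those of the authors' DESeq2 test at an adjusted p under 0.05, adjusted over all genes, and the planned fit of counts was not run. Wald intervals are the log2 fold change plus or minus 1.96 SE. Fitted levels assume 3 libraries per group. Neighbours are the 10 nearest protein-coding genes on each side with a mean of at least 100, ordered by GENCODE M21 (GRCm38), which matched 14456 rows. After their median was subtracted, the Wald p was recomputed with the gene's own SE. The spread of the neighbours was left out, so these p-values can be too small. As the authors' build differs, GENCODE M21 served only for order and overlap, and promoter coordinates are those of GRCm38. Full statistics are given for genes that passed with at least a 2-fold change, at a mean of at least 100 for the family itself, and for the smallest p of each role, and other genes by fold change. The genes and lists were chosen with earlier results of these data known, by name and not by their own values. Recalculated calls and neighbour medians were run on simulated data, in which chromosome 12 was shifted evenly as a whole. Noise in these data was drawn from each gene's own SE, so they could not test whether that SE is right. Shifts of opposite sign along 1 chromosome, as at Ccnk and Lin52 on chromosome 12, were not simulated. Python 3.11.15, numpy 2.4.6, pandas 2.3.3, scipy 1.17.1 and matplotlib 3.10.9 were used.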

Additional observations from a re-analysis of the deposited data

How the results depend on the processing

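The family's count of 22 lower and 5 higher genes was 18 and 3 at an adjusted p under 0.01, 9 and 2 with Bonferroni adjustment, 20 and 9 with neighbours subtracted, and 2 (Cdk17 and Cdk19) and 1 (Cdk20) when the change was tested for exceeding 1.5-fold. It stayed at 22 lower and 5 higher with genes under a mean of 10 or of 100 left out. All 27 genes that passed have a mean above 100, so these filters could not remove any of them. After centring on expressed genes, which shifted every value by 0.05, the count was 22 and 7. The median of the family ranged from -0.32 to -0.27 over 4 alternatives. For the 43 other cell cycle genes, 15 lower and 5 higher became 8 and 1 with Bonferroni adjustment and 2 and 1 when tested against 1.5-fold. Shares of all genes that passed under these alternative settings are not given here, so the counts have no background beside them. Among 17 genes with full statistics, direction and call held in 95 recalculations, the call was lost in 22, and 1 turned: E2f6 stood at 0.42 with neighbours subtracted. Direction could turn only after centring or with neighbours subtracted, as the other settings left the log2 change as it was. The 95 are therefore no measure of how stable the directions are. The causes were not tested. No gene of the family stands on 2 rows, so that choice gave no other value. Libraries could not be left out in turn, and no paired analysis was possible because the table holds no values of single libraries. Depth limits Cdk3, Cdk15, Cdkn1c and Ccno most, with SE of at least 0.43.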
